A study of Arabidopsis thaliana with 8 samples.

Results

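Arabidopsis seedlings kept for 30 h at 37 °C carried far more signal on probe sets for genes of the mitochondrial genome, and on those for the copy of mitochondrial DNA in chromosome 2, than seedlings kept at 22 °C. The genes described here are the 44 of 13355 genes with a probe set of their own that fall in either of these classes. Of these, 16 are encoded on the mitochondrial genome and 28 are protein-coding loci of chromosome 2 whose identifiers begin with AT2G076 or AT2G077. Each gene is represented by the probe set with the highest mean over all arrays. By the RefSeq gene order, 27 of the 28 chromosome 2 loci lie between the outermost of 24 loci there that carry the name of a tRNA, which is taken here as the extent of the copy. The last, AT2G07760, lies beside it, so the label of a copy does not hold for that locus.

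Seedlings were raised in vitro at 22 °C for 3 weeks under long days. The heat groups then spent 30 h at 37 °C, moved there early in the light phase, and the mock groups stayed at 22 °C. Plants were sampled either at the end of the heat (no recovery) or once they had spent 2 days at 22 °C (2 days recovery). Each of the 4 groups had 2 biological replicates, labelled as such without saying whether they were grown apart, so p-values measure the spread between these 8 arrays. All groups were seedlings of Arabidopsis thaliana. The sources used here do not give the ecotype or any mutation. Levels are log2 signals of the arrays, and a change is a difference of log2 signals, so that 1 unit is a doubling of signal. A signal below 2.3 counts as the array floor. Array medians ran from 5.04 to 5.11, and 30.8% to 31.8% of the signals on an array were at the floor.

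Plant mitochondria keep a small genome of their own. It encodes some subunits of the respiratory chain and the ATP synthase, some ribosomal proteins, and proteins that attach haem to cytochrome c. Most other mitochondrial proteins are encoded in the nucleus and imported. Chromosome 2 of Arabidopsis carries a large insertion of mitochondrial DNA near its centromere, whose sequence is nearly the same as that of the mitochondrial genome. A short probe can therefore bind transcripts of either, and signal from the mitochondrial genes and from their chromosome 2 counterparts cannot be told apart here. Messenger RNA of plant mitochondria has no stable poly(A) tail, and in that organelle a tail marks RNA for degradation. The sources used here do not give how complementary DNA was primed.

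Directly after the heat, 38 of the 44 genes were called higher than in mock, 1 was called lower and 5 were not called. The call is an adjusted p under 0.05 in limma, with Benjamini-Hochberg adjustment over all 22746 probe sets tested. Of all probe sets 21.2% were called higher and 19.8% lower in this comparison. Both heat arrays lay above both mock arrays for 39 of the 44 genes and below them for 1, where 29.8% of all probe sets lay above and 28.9% below. The median change of the 44 genes was 4.99, and 4.93 when genes with mock arrays at the floor were set against the floor itself. The median over all probe sets was 0. Of the 137 probe sets that rose by 5 or more, which are 0.602% of all, 77 had 1 gene, and these stood for 72 genes. The mitochondrial and chromosome 2 genes made up 21 of these 72. In whole seedlings, more cells of a type and more RNA per cell cannot be told apart.

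Respiratory complex I is the NADH dehydrogenase that feeds electrons into the chain. Of its 8 subunits measured here 7 rose, with a median change of 7.24 over the 8. nad9, a subunit of the arm that reaches into the matrix, stood at 3.05 and 3.11 on the mock arrays and at 11.42 and 11.41 on the heat arrays. The groups were far apart, and the change was 8.34 ± 0.23 (SE, n = 2 arrays per group, adjusted p = 9.42e-05 in limma). nad7, in the same arm, gave 2.74 and 2.70 in mock and 7.18 and 7.13 in heat, a change of 4.44 ± 0.05 (adjusted p = 1.26e-05 in limma).

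The other 6 subunits measured belong to the membrane arm, which moves protons. nad6 was close to the floor in mock, at 2.37 and 2.18, and stood at 10.26 and 10.27 in heat (change 7.99 ± 0.55). nad4L had 3.64 and 3.65 in mock and 11.84 and 11.35 in heat (change 7.95 ± 0.29), and nad5 had 3.41 on both mock arrays and 10.97 and 10.93 in heat (change 7.54 ± 0.28). In these subunits every heat array was far above every mock array. nad1 rose by 6.95 ± 0.29, from 4.25 and 4.33 to 11.35 and 11.12. nad4 already gave a clear signal in mock plants, at 8.35 and 7.98, and rose to 10.19 and 10.15. Its rise was the smallest among the measured subunits that rose, at 2.00 ± 0.19 (adjusted p = 0.00188 in limma). nad2 stayed next to the floor in every group (2.36 and 2.28 in mock, 2.28 and 2.23 in heat), so its change could not be measured.

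Cytochrome c oxidase passes electrons to oxygen, and both of its subunits with a probe set of their own rose. cox1, the catalytic subunit, stood at 5.76 and 5.43 in mock and at 12.40 and 12.41 in heat (change 6.81 ± 0.33, adjusted p = 0.000312 in limma). cox2, which takes the electrons from cytochrome c, stood at 4.25 and 3.94 in mock and at 12.67 and 12.68 in heat. By highest-mean probe sets, its change of 8.58 ± 0.35 was the largest among the mitochondrial genes described here with a mock group above the floor. The groups of cox2 did not overlap (adjusted p = 0.00021 in limma).

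Of the 4 genes for cytochrome c maturation measured here 3 rose and 1 fell. ccmB, a membrane subunit of the transporter of this pathway, stood at 2.55 and 2.47 in mock and at 7.58 and 7.42 in heat (change 4.99 ± 0.06). The other genes encode parts of the haem lyase, which plants have split into several proteins. ccmFC rose by 6.29 ± 0.33, from 4.76 and 4.44 to 11.24 and 10.54. ccmFN2 went from the floor (2.23 and 2.22) to 9.42 and 8.85, a rise of at least 6.84. ccmFN1 was the exception. It gave 8.54 and 8.66 in mock and 7.51 and 7.62 in heat, so both heat arrays lay below both mock arrays (change -1.04 ± 0.10, adjusted p = 0.00161 in limma).

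The maturase gene matR, whose product takes part in intron splicing, was at 2.18 on both mock arrays and at 8.34 and 8.16 in heat, a rise of at least 5.95. mttB, which encodes a protein related to the TatC subunit of bacterial protein transport, stood at 2.73 and 2.77 in mock and at 7.44 and 7.64 in heat (change 4.79 ± 0.07). Heat arrays were above mock arrays for both genes, with no overlap (adjusted p = 1.7e-05 and 2.14e-05 in limma).

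**Figure D1:**
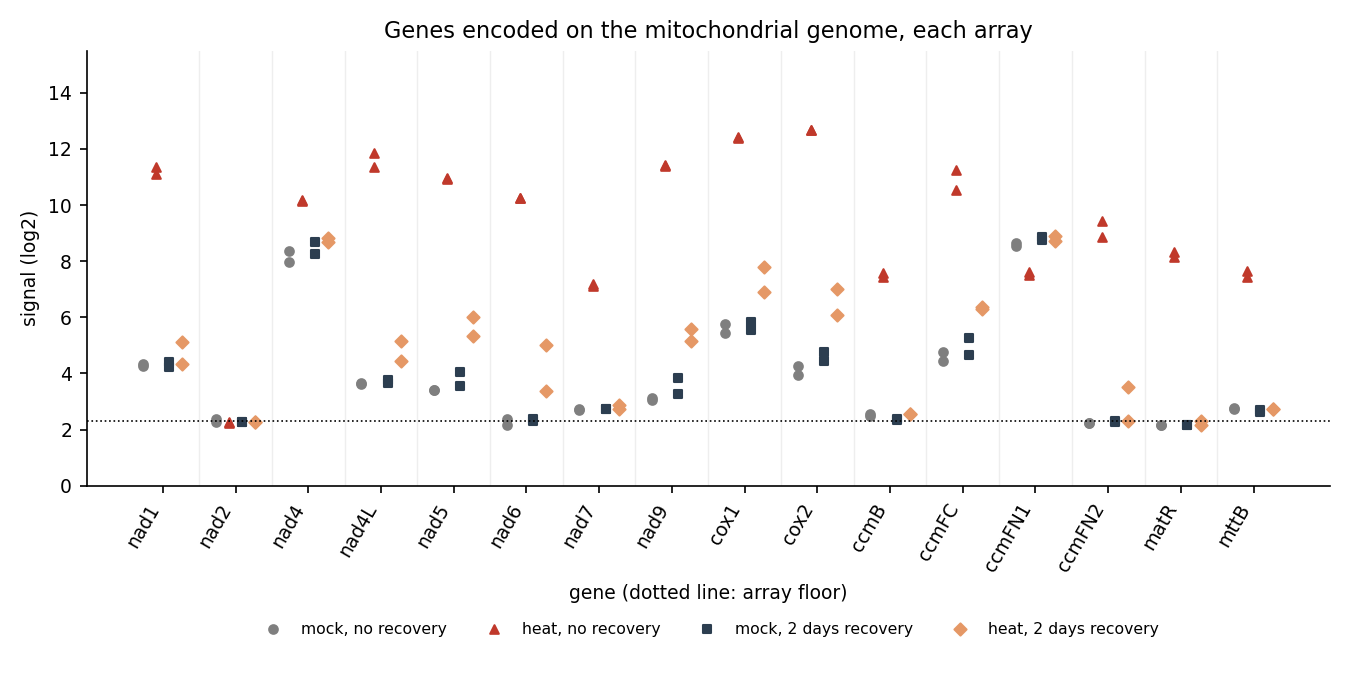
Log2 signal (vertical axis) of the 16 genes of the mitochondrial genome on each array, 1 point per array and 2 per group, with the array floor at 2.3 dotted. The heat arrays without recovery lie above the mock arrays for 14 genes, below them for ccmFN1, and at the floor for nad2.

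nad1 and nad5 had more than 1 probe set with no other gene listed. All 7 probe sets of nad1 rose. The changes of 5 of them lay between 6.95 and 7.72, and those of the other 2, with mock arrays at the floor, were at least 1.92 and at least 2.45. The first of this pair stood at 4.31 and 4.14 in heat and the second at 5.20 and 4.30. Since the rises of this pair are lower bounds, they cannot be ranked against those of the other 5. Both probe sets of nad5 rose, by 7.54 ± 0.28 and 8.71 ± 0.48.

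**Figure D2:**
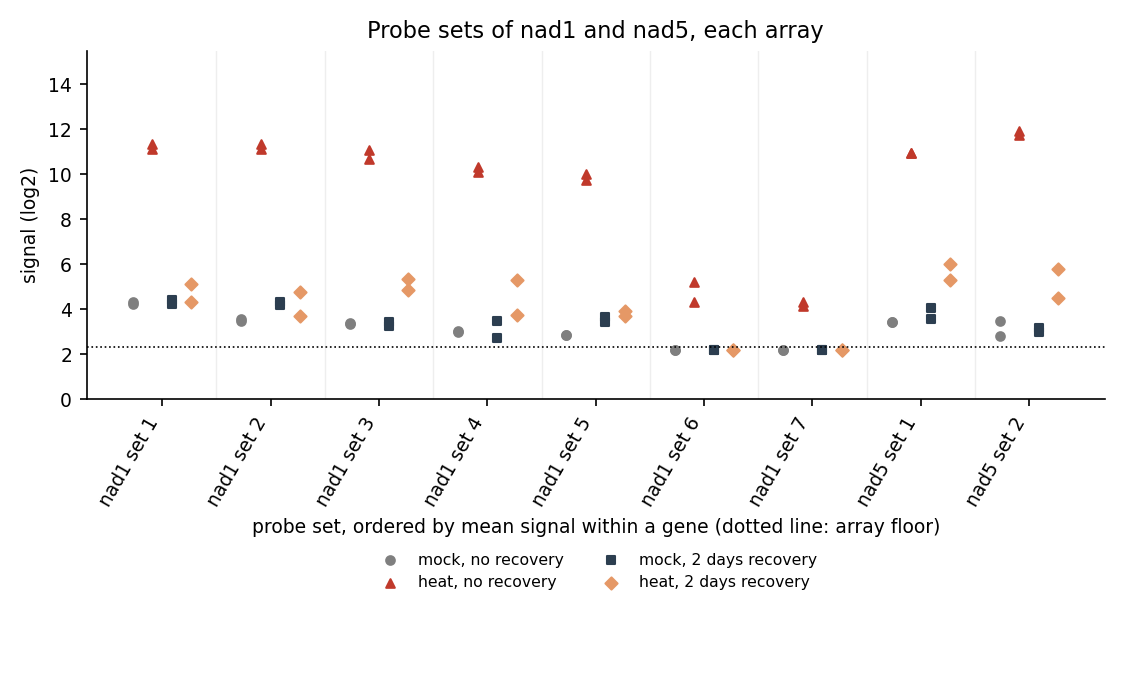
Log2 signal (vertical axis) of each of the 7 probe sets of nad1 and the 2 of nad5, 1 point per array, with the array floor dotted. On every probe set both heat arrays without recovery lie above both mock arrays of that time, and sets 6 and 7 of nad1 are at the floor in mock.

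Of the 28 chromosome 2 loci 24 were called higher, 0 lower and 4 were not called, with a median change of 4.38, or 4.26 against the floor. On the mock arrays without recovery 19 of the 28 were at the floor. AT2G07722 had the highest bound. It was at 2.18 and 2.26 in mock and at 11.65 and 11.38 in heat, a rise of at least 9.21 (adjusted p = 0.00064 in limma). AT2G07741 stood at 3.96 and 3.58 in mock and at 11.78 and 11.91 in heat (change 8.08 ± 0.50), and AT2G07777 at 3.48 and 2.85 in mock and at 10.79 ± 0.30 in heat (SD, n = 2, change 7.62 ± 0.26). For each of the 3 loci the heat arrays were far above the mock arrays.

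A further group of loci was above the floor in mock plants as well. AT2G07707 stood at 6.78 and 6.33 in mock and at 12.69 and 12.60 in heat (change 6.09 ± 0.26). AT2G07708 rose by 5.45 ± 0.28, AT2G07695 by 6.51 ± 0.23 and AT2G07732 by 5.55 ± 0.24. AT2G07751 gave 6.26 and 6.31 in mock and 11.52 and 11.13 in heat (change 5.04 ± 0.21). AT2G07718 changed least among these, from 5.39 and 5.31 to 8.22 and 7.97 (change 2.75 ± 0.09).

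The other risen loci were at the floor in mock. AT2G07749 reached 9.29 and 8.80 in heat, AT2G07676 8.58 and 8.29, and AT2G07674 7.89 and 8.04, which are rises of at least 6.75, 6.13 and 5.66. AT2G07705 and AT2G07739 gave nearly the same value on both heat arrays, 7.18 and 7.16 for the first and 7.11 on both for the second, rises of at least 4.87 and 4.81. AT2G07678 rose by at least 4.37, AT2G07719 by at least 4.15, AT2G07721 by at least 3.67 and AT2G07776 by at least 3.19. AT2G07728, AT2G07773 and AT2G07713 had rises of at least 2.94, 2.94 and 2.93. The heat arrays of AT2G07773 were uneven, at 4.55 and 5.92, and it was not called in a fit without the recovery arrays (adjusted p = 0.0733 in limma). AT2G07738 and AT2G07673 rose by at least 1.93 and 0.89, to 4.44 and 4.01 and to 3.05 and 3.34.

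The remaining loci were at the floor or not called. AT2G07691 and AT2G07714, inside the copy, and AT2G07760, beside it, read 2.18 on all 8 arrays. AT2G07692 was called higher by 0.06 (adjusted p = 0.0393 in limma), but it stood at 2.22 and 2.26 in heat, below the floor on every array. It is counted among the 38. AT2G07724 read 2.48 on both mock arrays and 3.55 and 2.67 on the heat arrays, and its change of 0.63 ± 0.30 was not called (adjusted p = 0.186 in limma). Its heat arrays lay above its mock arrays but apart from each other. With only 1 heat array kept, and the spread taken from the other groups, its change was 0.19 or 1.07, and both were called.

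Along the chromosome, loci above the floor in mock differed in the size of the change, from 0.63 for AT2G07724 and 2.75 for AT2G07718 to 8.08 for AT2G07741, which lies at the end of the measured order inside the copy. Most other loci gave lower bounds, which have no order among themselves. Outside the copy, 13 further loci with a probe set of their own, 12 of them pseudogenes, were looked at on both sides. None of the 13 was called higher, and 12 were below the floor on all arrays, so the change of these 12 could not be measured. The highest signal of any of them on a heat array without recovery was 2.18. Inside the copy 1 pseudogene, AT2G07693, was at 2.18 in mock and at 4.40 and 2.97 in heat, and its change was not called (adjusted p = 0.0696 in limma).

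**Figure D3:**
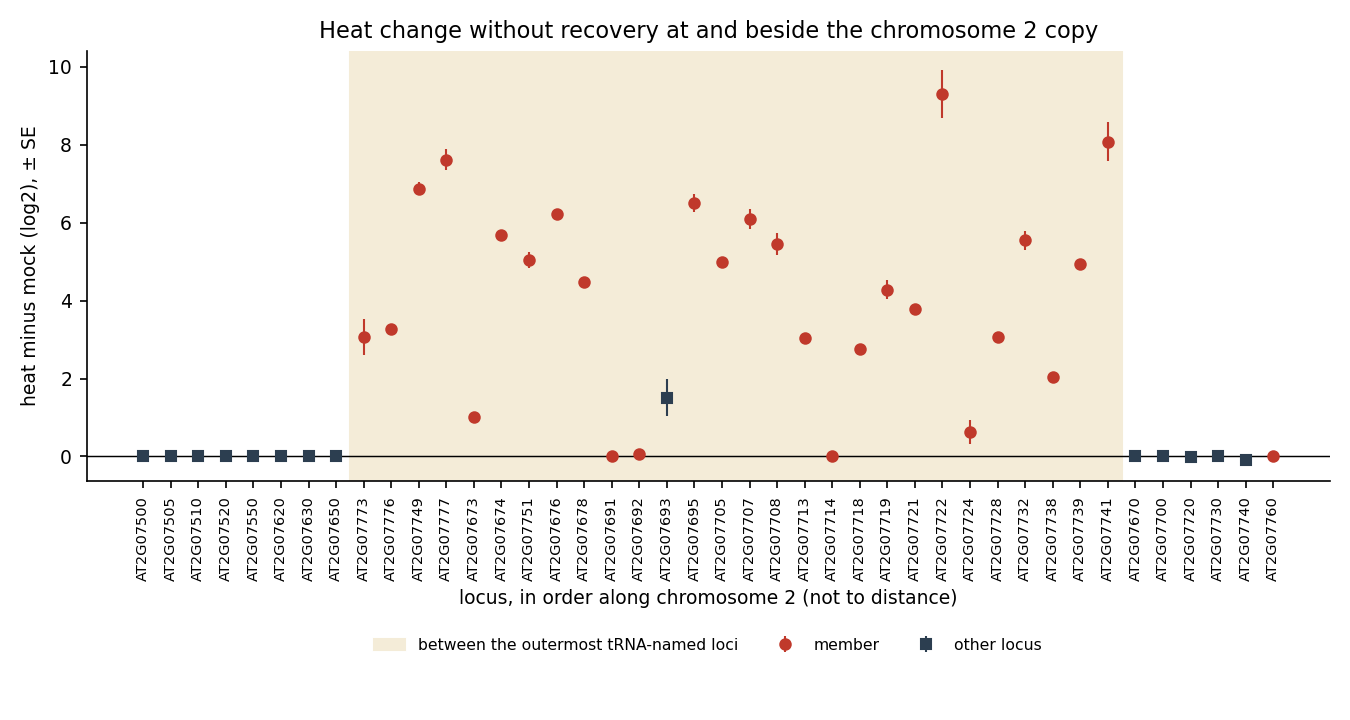
Change of log2 signal, heat minus mock without recovery (± SE, n = 2 arrays per group), for each measured locus in its order along chromosome 2, which is not drawn to distance. The shaded stretch lies between the outermost loci named for tRNAs, and members inside it reach 9.30 as fitted (AT2G07722, a rise of at least 9.21). The loci outside it are drawn at about 0. All of them but AT2G07740 were below the floor on every array, so their change could not be measured.

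The manufacturer marks probe sets whose probes match several transcripts, and 24 of the 44 genes were measured by such a probe set. Inside the copy 17 of the 19 loci with such a probe set were called higher, with a median change of 4.93, or 4.81 against the floor. Of the 8 loci with another probe set 7 were called higher, with a median of 3.53, or 3.43 against the floor. Among the mitochondrial genes ccmFC, matR, mttB, nad5 and nad6 had such a probe set. The difference between the kinds of probe set was not tested.

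A further 12 probe sets are listed for several genes at once and so belong to no single gene. Of these, 11 pair a gene of the mitochondrial genome with a locus of the chromosome 2 copy, and 1 covers the neighbouring mitochondrial genes rps3 and rpl16. All 12 were called higher directly after heat, by 4.61 to 8.95. They hold further parts of the respiratory chain and the ATP synthase. The probe set of cox3, the third core subunit of cytochrome c oxidase, and AT2G07687 stood at 2.81 and 2.47 in mock and at 11.64 and 11.54 in heat (change 8.95 ± 0.59). That of cob, the cytochrome b subunit of complex III, and AT2G07727 rose by 7.56 ± 0.30, from 3.56 and 3.38 to 10.97 and 11.08. For both, the groups lay far apart.

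Among subunits of the ATP synthase, atp1 with AT2G07698 stood at 6.96 and 6.63 in mock and at 14.08 and 13.88 in heat (change 7.18 ± 0.24). atp9 with AT2G07671 gave 8.82 and 8.64 in mock and 14.87 and 14.55 in heat (change 5.98 ± 0.26). Proteins of the mitochondrial ribosome behaved alike in direction. The change was 7.08 ± 0.24 for rps12 with AT2G07675, 6.41 ± 0.14 for rpl2 with AT2G07715, 6.18 ± 0.39 for rps3 with rpl16 and 6.01 ± 0.39 for rpl5 with AT2G07725. It was 4.61 ± 0.32 for rps4 with AT2G07734, and rps7 with AT2G07696 went from the floor to 7.41 and 7.09. The remaining 2 probe sets pair nad1 with AT2G07701 and with AT2G07702. They were at the floor in mock and at 9.02 and 9.54, and 9.60 and 9.64, in heat.

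**Figure D4:**
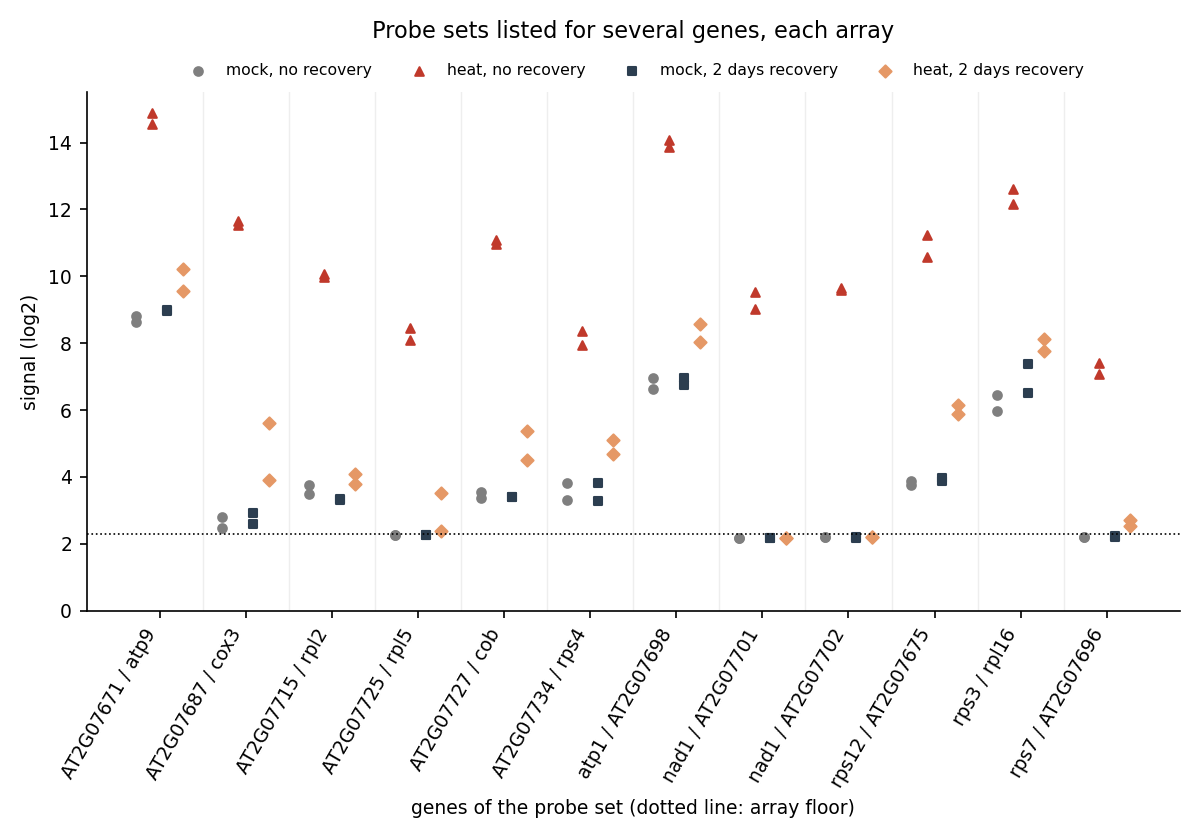
Log2 signal (vertical axis) on each array of the 12 probe sets listed for several genes, 1 point per array, with the array floor dotted. On every one of them both heat arrays without recovery lie above all other arrays, and the highest, for atp9 with AT2G07671, reach 14.55 and 14.87.

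After 2 days at 22 °C none of the 44 genes was called different between heat and mock plants. At that time 0.132% of all probe sets were called higher and 0.106% lower by limma. The smallest adjusted p of the 44 was 0.0895, for nad9. At an unadjusted p under 0.05, 11 of the 44 were higher and 0 lower, and 6.42% of all probe sets were higher by that rule. Both heat arrays lay above both mock arrays for 19 of the 44 and below them for 0, where 16.2% of all probe sets lay above and 16.6% below. The median change was 0.52 for the 16 mitochondrial genes and 0.02 for the chromosome 2 loci, of which 15 were at the floor in both groups.

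The genes that stood farthest above mock after recovery were spread over the roles. AT2G07741 had 4.92 and 3.57 on the mock arrays of that day and 6.77 and 7.28 on the heat arrays, a difference of 2.78 ± 0.50 (adjusted p = 0.142 in limma). cox2 had 4.78 and 4.46 in mock and 6.08 and 7.02 in heat (1.93 ± 0.35, adjusted p = 0.141 in limma). nad5 had 3.55 and 4.04 in mock and 5.32 and 6.01 in heat (1.87 ± 0.28, adjusted p = 0.109 in limma). The groups of these genes did not overlap, but none of the differences passed the threshold.

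nad9 gave 3.83 and 3.28 in mock and 5.16 and 5.59 in heat (1.82 ± 0.23), and cox1 gave 5.85 and 5.54 in mock and 6.91 and 7.78 in heat (1.65 ± 0.33, adjusted p = 0.163 in limma). For nad6 the recovered plants differed from each other, at 3.38 and 5.02 against 2.36 and 2.31 in mock (1.86 ± 0.55, adjusted p = 0.284 in limma). ccmFC was at 6.28 and 6.35 after heat and at 5.27 and 4.67 in mock (1.35 ± 0.33, adjusted p = 0.213 in limma), and nad4L was higher by 1.11. AT2G07751 was at 7.82 and 7.65 after heat and at 6.70 and 6.25 in mock (1.26 ± 0.21, adjusted p = 0.121 in limma). AT2G07718 differed by 0.58 ± 0.09 (adjusted p = 0.114 in limma). Genes with large rises directly after heat could be back at the mock level, as nad7 was, at 2.74 and 2.87 against 2.73 and 2.74. AT2G07749 was back at 2.18 on both heat arrays. Among probe sets listed for several genes, rps12 with AT2G07675 differed most, by 2.08 ± 0.24 (adjusted p = 0.082 in limma). cox3 with AT2G07687 differed by 2.00 ± 0.59, while those of nad1 with AT2G07701 and with AT2G07702 were at the floor in both groups. Probe sets of nad1 alone ran from -0.04 to 1.74, and the other probe set of nad5 differed by 2.06 ± 0.48. None of these was called.

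The recovery calls depended on which probe sets entered the fit. Over the 13849 probe sets with a log2 signal of at least 4 on at least 2 arrays, of which 2.17% were called higher, 8 of the 37 members tested there were called. They were nad9, nad5, AT2G07741, cox2, AT2G07751, cox1, ccmFC and AT2G07718, with adjusted p from 0.00905 to 0.0492 in limma. Members could enter that fit through their heat arrays without recovery alone, so the 8 calls are no independent support.

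The pair of heat recovery arrays was uneven for the mitochondrial genes. Replicate 2 was above replicate 1 for 14 of the 16 mitochondrial genes, by a median of 0.28 over the 16, where it was above for 5 of the 16 in each of the other 3 groups. For the chromosome 2 loci it was above for 9 of 28, with a median difference of 0, and for 6, 7 and 6 of 28 in the other groups. However, 15 of these loci were at the floor in both recovery groups, so their median says little about unevenness. Among the 29 members above the floor on a heat recovery array, which include mitochondrial genes, replicate 2 was above for 22. The median difference of these members was 0.14, and in the other groups replicate 2 was above for 9, 7 and 8 of them. Over all probe sets replicate 2 of the heat recovery group was above replicate 1 for 8576 of 22746, with a median difference of 0. The unevenness was widest for AT2G07722, at 2.62 and 4.41, and for nad6. Without heat recovery replicate 1, nad6 (2.68), cox2 (2.40) and AT2G07722 (2.15) were called higher after recovery. Without replicate 2, nad6 (1.04) was. In these fits the spread for the 1 heat array left comes from the other groups, and 1.46% and 1.41% of all probe sets were called higher.

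**Figure D5:**
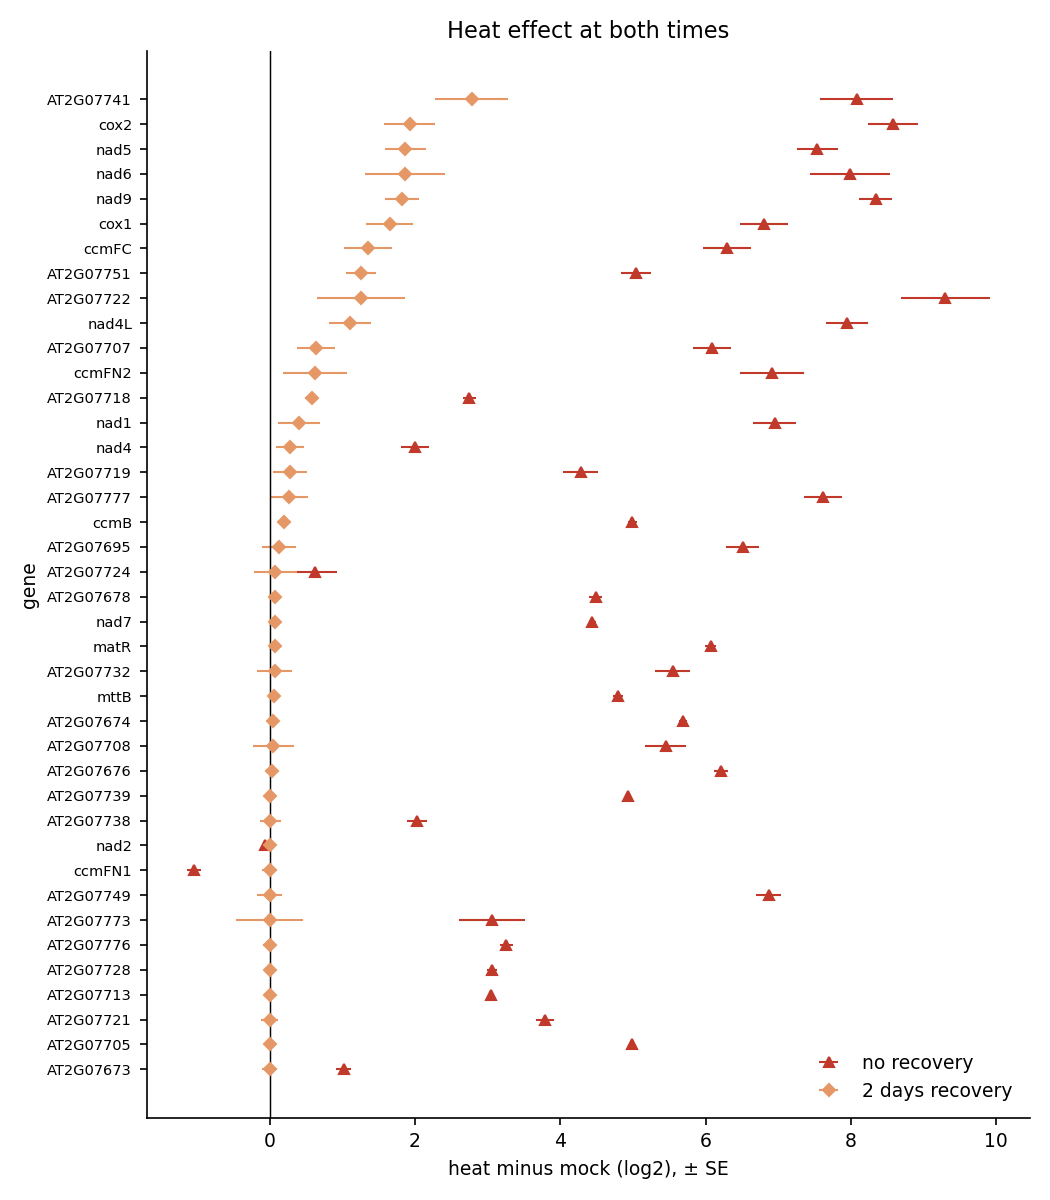
Difference of log2 signal between heat and mock arrays (horizontal axis, ± SE, n = 2 arrays per group) without recovery and after 2 days of recovery, for the 40 genes above the floor in at least 1 group without recovery, ordered by the difference after recovery. The differences after recovery run from about 0 to 2.78, and those without recovery from -1.04 to 9.30 as fitted, the last for AT2G07722, whose rise is at least 9.21.

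Tested directly, the heat effect after recovery was lower than the effect without recovery for 37 of the 44 genes and higher for 1, ccmFN1, by 1.04. Of all probe sets 16.9% were lower and 15.4% higher in this test. Both effects are measured against their own mock plants. The stressed plants themselves moved in the same way over the 2 days, with 38 genes lower, 1 higher (ccmFN1) and a median change of -4.80, where 20.9% of all probe sets were called lower and 19.1% higher. These comparisons share arrays, so their counts are not separate evidence. For mock plants over the same days, 0 of the 44 genes were called between the earlier and the later mock plants by limma, and 0 had an unadjusted p under 0.05, where 0.0791% and 8.63% of all probe sets did. Their changes lay between -0.16 and 0.62.

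Several other classes of RNA were set beside these genes. The plastid genome also gives rise to messenger RNA without a stable poly(A) tail. Of its 69 genes measured, 4 were called higher and 22 lower directly after heat, with a median change of -0.43. Of all probe sets 21.2% were called higher and 19.8% lower in that comparison. A control probe set that detects 25S ribosomal RNA stood at 11.73 and 11.43 in mock and at 13.41 and 13.56 in heat, and at 11.51 and 11.96 against 11.99 and 11.79 after recovery. It was thus higher on the heat arrays at the time when the mitochondrial signal was high, by a mean of 1.91, and by 0.15 after recovery. The control for 5S ribosomal RNA was at the floor, at 2.18 on all arrays, so its change could not be measured. The GAPDH controls for the 3′ and the 5′ end of the transcript, a check of RNA quality, were higher by 0.32 and 0.56 on the heat arrays directly after heat, and differed by -0.21 and -0.45 after recovery. Actin controls of the same series gave 0.25 and 0, and -0.29 and 0.02. Another series of controls on the arrays gave 0.56 and 0.71, and -0.49 and -0.41, for GAPDH. For actin that series gave 0.43 and 0.77, and -0.23 and -0.41. The 5′ actin control of the former series read 5.47 to 5.50 on all arrays, so it hardly moved in any group. Ubiquitin controls gave 0.44 and 0.58 directly after heat, and 0.11 and 0.42 in the other series. In every pair but that of the unmoving actin control, the 5′ end thus rose more than the 3′ end directly after heat. After recovery the order of the ends differed between pairs. The part of these controls in the result was not tested.

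Nuclear genes that work with the mitochondrial genes were mostly unlisted in the gene table. Of 40 nuclear genes for the expression and upkeep of the mitochondrial genome 8 were measured, and 4 rose and 0 fell directly after heat. In that comparison 21.2% of all probe sets were called higher and 19.8% lower. AT5G14580 stood at 2.44 and 2.20 in mock and at 6.22 and 5.67 in heat (change 3.63 ± 0.24). AT5G15700 rose by 2.19 ± 0.09 and AT5G46920 by 1.71 ± 0.13. Of 5 nuclear partners of cytochrome c maturation 3 were measured. Cytochrome c itself, which receives the haem, is encoded by CYTC-1 and CYTC-2. They rose by 1.30 ± 0.08 and 3.48 ± 0.35, and the maturation factor CCMH had a change of -0.20 ± 0.17. None of these genes was called after recovery.

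Nuclear genes known to respond to mitochondrial stress were measured for 5 of 15 listed. Directly after heat 4 of them rose, where 21.2% of all probe sets were called higher. AT5G51440, which encodes a small heat shock protein of mitochondria, was at 2.21 and 2.20 in mock and at 10.40 and 10.15 in heat. Whether its rise answers to heat itself or to mitochondrial stress was not tested. AT2G21640 stood at 5.78 and 5.44 in mock and at 10.02 and 10.13 in heat (change 4.46 ± 0.20), and NDB2, an alternative NADH dehydrogenase, rose by 2.53 ± 0.30. After recovery 0 of the 5 were called by limma.

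The tissue label was checked with markers. All 3 leaf markers measured of 10 listed gave strong signals. Directly after heat all 3 were lower, where 19.8% of all probe sets were called lower. RCA, which activates the carbon-fixing enzyme Rubisco, stood at 14.12 and 14.18 in mock and at 13.65 and 13.52 in heat, LHCB4.2, an antenna protein, fell by 3.64 (SE 0.11), and PSAE-1, of photosystem I, fell by 1.68 (SE 0.06). Of 5 root markers 3 were measured: PYK10 fell by 2.71 (SE 0.27), and EXPA7 and EXPA18 were at the floor on all arrays. The 1 flower marker measured of 4 was at the floor throughout, and none of the 4 seed markers was measured. The markers that changed thus fell at the time when the mitochondrial signal rose, and their part in the result was not tested.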

How the data were processed

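Total RNA of 8 seedling samples was purified on columns, labelled with biotin by the array maker's standard method and measured on Affymetrix arrays, per the labels' protocols. For each probe set and array the authors deposited a single score. GCRMA, named in the submitters' processing notes without a version, corrects the background, normalizes between arrays and summarises probes on the log2 scale. None of the 182480 deposited scores held a decimal point. It was put back behind the leading digit, or behind the leading 2 digits where that digit is 1. Numbers leading with 10 to 15 were 10444 and the rest, 172036, led with 21 or more, so each had 1 reading on a log2 scale, from 2.18 to 15.23. Every change rests on this reading. The authors had already normalized between arrays, so a shift common to all transcripts is not visible.

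Of 22810 probe sets 64 controls were left out and 22746 tested. The gene table gives 1 gene to 13513 probe sets, several to 503 and none to 8730, and 13507 of those with 1 gene were found in RefSeq (assembly TAIR10.1). RefSeq served for names, gene classes and neighbour order. No coordinates are printed, since the sources used here name no build for the array. Mitochondrial genes listed under older symbols carry the RefSeq symbol: ccb206 is ccmB, ccb452 ccmFC, ccb382 ccmFN1, ccb203 ccmFN2 and orfX mttB. Of 32 mitochondrial protein-coding symbols 16 had a probe set of their own.

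limma 3.58.1 in R 4.3.3 fitted the 4 group means to the 8 arrays together (4 residual degrees of freedom). Contrasts were two-sided, and Benjamini-Hochberg adjustment ran over every probe set tested, with a threshold of 0.05. A rise from mock arrays that are both at the floor (below 2.3) is given as "at least", computed against that floor. The number of arrays, 2 per group, limits the precision. Alternatives were a filter on dim probe sets, a higher floor, centring of arrays on their median, quantile normalization without organelle genes, other choices of probe set, only the arrays compared, a replicate block and leaving out each array. Python 3.11.15 with pandas 2.3.3 and matplotlib 3.10.9 read the tables and drew the plots.

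The members, the lists of nuclear genes and markers and the tests were chosen with earlier results of these data known. By rule all members are named, and of each nuclear list the 3 with the smallest p. No pairing of arrays by replicate number was evident, as deviations of same-numbered arrays correlated at -0.134 to 0.154 between groups. These correlations cannot exclude that same-numbered arrays were grown or handled together. Mitochondrial genes were to be paired with chromosome 2 loci by protein identity. This was not run because no protein sequences were used here, so pairs come from probe sets listed for several genes.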

Additional observations from a re-analysis of the deposited data

Results flagged for a closer look

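For 38 of the 44 genes the heat effect differed between the times in the direct test of that difference, in limma at an adjusted p under 0.05. The values are the heat effect after 2 days of recovery minus the effect without recovery, in log2 units. Complex I genes gave -6.84 for nad4L, -6.54 for nad1, -6.52 for nad9, -6.13 for nad6, -5.66 for nad5, -4.37 for nad7 and -1.73 for nad4. The oxidase genes cox2 and cox1 gave -6.65 and -5.16. Cytochrome c maturation genes gave -6.29 for ccmFN2, -4.94 for ccmFC and -4.79 for ccmB, and the reverse sign for ccmFN1, 1.04. matR gave -6.00 and mttB -4.73. The mock arrays of matR and ccmFN2 without recovery were at the floor, so the size of their difference is less certain.

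Chromosome 2 loci whose mock groups were above the floor gave -7.35 for AT2G07777, -6.38 for AT2G07695, -5.48 for AT2G07732, -5.45 for AT2G07707, -5.39 for AT2G07708, -5.30 for AT2G07741, -3.78 for AT2G07751 and -2.17 for AT2G07718. The other loci had mock arrays at the floor, so the size of their difference is less certain. AT2G07722 gave -8.04, AT2G07749 -6.87, AT2G07676 -6.18 and AT2G07674 -5.64. Values of -4.99 for AT2G07705, -4.92 for AT2G07739, -4.43 for AT2G07678, -3.99 for AT2G07719 and -3.79 for AT2G07721 followed. The remaining values were -3.26 for AT2G07776, -3.06 for AT2G07728 and AT2G07773, -3.05 for AT2G07713, -2.02 for AT2G07738 and -1.02 for AT2G07673.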

How the results depend on the processing

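Directly after heat, 37 to 39 members were called higher when single arrays were left out, and 1 or 2 lower (2 without mock no-recovery replicate 2, where nad2 was called at -0.11). The median change of 4.99 was 5.55 with a filter (at least 2 arrays at log2 4 or more), 3.52 with values under 4 set to 4, and 5.62 with probe sets of several genes. The members called higher, 38 in all, were 34 with values under 4 set to 4 and 36 with only the arrays compared. Lost with the higher floor were AT2G07673, AT2G07738, AT2G07773 and AT2G07692, and with only the arrays compared AT2G07773 and AT2G07692. AT2G07692, below the floor on every array, has no values of its own among the 599 of single genes under these alternatives. After recovery the 54 calls over all probe sets became 1 with only the arrays compared, 582 with the filter, 18 with the higher floor, 201 with arrays centred on their median, and 15 to 431 without single arrays. Members called higher, 0 in all, were 8 with the filter, 1 with centred arrays (nad9, 1.85) and 0 to 3 without single arrays. The median difference of the heat effects, -4.85, was -5.16 with the filter, -3.52 with the higher floor, -5.04 with probe sets of several genes and -4.89 to -4.67 without single arrays. The return of stressed plants, -4.80, was -3.52 with the higher floor and -4.84 to -4.59 without single arrays. Between mock plants, 18 calls over all probe sets became 0 with only the arrays compared, 8 with the higher floor and 4 to 361 without single arrays. For single genes only the 2 heat comparisons were recomputed, and none of their 599 and 285 values changed sign. With the replicate number as a block, 8705 probe sets were called directly after heat against 9334, 18 after recovery and 9 between mock plants, and the members' calls directly after heat were 37 higher and 1 lower. With 2 arrays per group, values at the floor and shared probes limit these results.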
